A study of Callithrix jacchus with 39 samples.

Results

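Genes of the cilium and centrosome were followed through bulk RNA sequencing of common marmoset (Callithrix jacchus) embryonic stem cells and early embryos. They were chosen by name: every row of the deposited count table whose marmoset symbol begins with IFT, BBS, DNAH, DNAI, DRC, TCTN or CEP plus a digit, or with DNAAF or RSPH. This gave 89 gene IDs with 88 symbols, out of 30811 IDs of which 12660 carry a symbol. IFT20 has 2 IDs, ENSCJAG00000012534 and ENSCJAG00000023418, which were kept apart. The rule reads names alone, and it was set with earlier results of these data known. There were 25 genes of ciliary transport and the ciliary membrane, 29 genes of the motile axoneme and 35 CEP genes.

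The 39 libraries form 13 groups of 3. The 6 stem cell groups are DSY-c2 naive TgON and DSY-c2 primed Tg, N40 naive TgOFF and N40 primed Tg, and the primed lines DSY127 and No.40, whose labels carry no Tg. The labels do not say what Tg, TgON and TgOFF stand for. Both naive groups carry TgON or TgOFF where their primed counterparts carry Tg, so the naive state and the Tg label cannot be told apart. The 7 embryo groups are morula, the ICM (the inner cell mass, the part of the blastocyst that gives rise to the embryo) at the early, blastocyst, expanded, hatching and hatched stages, and postimplantation epiblast. Age and sex were not given in the labels used, nor whether replicates were grown or collected apart, so p-values cover the spread between libraries, which may be technical.

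A cilium is a microtubule-based projection that grows from a basal body, a centriole docked at the cell surface. Intraflagellar transport (IFT) carries building blocks along it: complex B with kinesin towards the tip, complex A with cytoplasmic dynein back to the base. The BBSome moves membrane proteins in and out, and the tectonics (TCTN) sit in the transition zone, the gate at the base. Nearly every primary cilium, the immotile sensory cilium of most cell types, needs these parts. Motile cilia add outer and inner dynein arms (DNAH and DNAI chains, put together by DNAAF factors), radial spokes (RSPH) and the nexin-dynein regulatory complex (DRC). CEP genes code for proteins of the centrosome, many of them used in centriole duplication and mitosis whether or not a cell has a cilium.

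Library depth was 38836947 to 78726217 counts in stem cells and 45257233 to 59037179 counts in embryos. The members took 0.237 to 0.336% of the counts in stem cell libraries and 0.121 to 0.290% in embryo libraries. Levels are in CPM, each library's counts scaled to the same total, separately for stem cells and embryos, so a level in one set is only roughly comparable with one in the other. The state labels were met by marker sums. A list of 6 naive pluripotency genes summed to 3076 to 3324 CPM in DSY-c2 naive cells, against 720 to 1353 CPM in DSY-c2 primed cells. The same list summed to 3876 to 4307 CPM in N40 naive cells, against 309 to 340 CPM in N40 primed cells. POU5F1, the factor that defines pluripotent cells, averaged 554 CPM or more in all 13 groups. Trophectoderm markers summed to 223 to 1372 CPM in hatched blastocyst ICM libraries and to 55.3 to 63.5 CPM in epiblast libraries, and their part in the embryo results was not tested. Column names end in L1 and L2 or in L6 and L7, here called the lane pair. The labels do not say that these are lanes, nor that equal endings mean the same run. All DSY-c2 primed libraries carried another lane pair than all DSY127 and N40 libraries, while both N40 groups carried the same one. DSY-c2 naive replicates 1 and 2 and No.40 replicate 1 carried the pair of the DSY-c2 primed libraries. The other libraries of these 2 groups carried the pair of N40. DSY-c2 naive replicate 3 was highest in its group for 8 of the 14 motile axoneme genes at 1 CPM or more.

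Other cell markers also moved with the state. The neural list (PAX6, NES and NCAM1) summed to 61.3 to 108 CPM in DSY-c2 naive cells, against 620 to 669 CPM in DSY-c2 primed cells, and to 62.6 to 85.8 CPM in N40 naive cells, against 611 to 653 CPM in N40 primed cells. NES made up most of it, while PAX6, the defining neural factor, stayed at or below a mean of 1.04 CPM in all stem cell groups. The fibroblast list (5 of 6 genes found) summed to 63.1 to 166 CPM in DSY-c2 naive cells, against 299 to 380 CPM in DSY-c2 primed cells. In N40 it summed to 162 to 354 CPM in naive cells, against 501 to 776 CPM in primed cells, but only COL1A1, which made up most of the sum, was called lower there, while 3 of the 5 genes (COL1A2, POSTN and PRRX1) were called higher (list median log2 change 2.61). In DSY-c2 the fibroblast list had 2 genes lower and 1 higher (median 0.23). The mesoderm and node list summed to 7.15 to 10.7 CPM in DSY-c2 naive cells, against 53.9 to 299 CPM in DSY-c2 primed cells, and to 4.47 to 5.84 CPM in N40 naive cells, against 7.85 to 11.3 CPM in N40 primed cells. Other lists had higher sums in N40 naive cells. Primitive endoderm markers summed to 117 to 188 CPM in N40 naive cells, against 24.8 to 50.5 CPM in N40 primed cells (3 of 6 called higher and 1 lower), and to 178 to 256 CPM in DSY-c2 naive cells, against 67.0 to 533 CPM in DSY-c2 primed cells. Trophectoderm markers summed to 63.9 to 99.4 CPM in N40 naive cells, against 36.9 to 43.3 CPM in N40 primed cells (3 of 4 called higher and 1 lower), and to 31.3 to 205 CPM in DSY-c2 naive cells, against 94.6 to 144 CPM in DSY-c2 primed cells. Genes with at least 10 counts numbered 15613 to 15679 in DSY-c2 naive libraries, against 16474 to 16573 in DSY-c2 primed libraries, and 15680 to 16186 in N40 naive libraries, against 16170 to 16271 in N40 primed libraries. Among all genes, 29.6% were called higher and 29.3% lower in DSY-c2 naive cells, and 32.3% and 28.7% in N40 naive cells. The part of these markers and numbers in the results below was not tested.

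Of the 29 motile axoneme genes, 14 averaged at least 1 CPM in DSY-c2 naive cells, against 24 in DSY-c2 primed cells. In N40 it was 12 in naive cells, against 23 in primed cells. DSY127 had 23 and No.40 had 25. Along the embryo series the count was 15 in morula, 9, 12, 12, 16 and 13 in the successive ICM stages, and 22 in postimplantation epiblast. Of the 25 transport genes, 24 averaged at least 1 CPM in every stem cell group. Their median level was 19.0 CPM in DSY-c2 naive cells, against 27.9 CPM in DSY-c2 primed cells, and 23.8 CPM in N40 naive cells, against 31.6 CPM in N40 primed cells. In embryos 23 of the 25 averaged at least 1 CPM in morula, 18, 23, 23, 22 and 22 in the successive ICM stages, and 23 in epiblast. The CEP genes reached it for 34 or 35 of 35 in stem cells and 33 or 34 in embryos. In all, 57 members had a count in all 39 libraries, and the member seen least often, DNAH7, which shared that number with DNAAF6, had counts in 19.

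**Figure D1:**
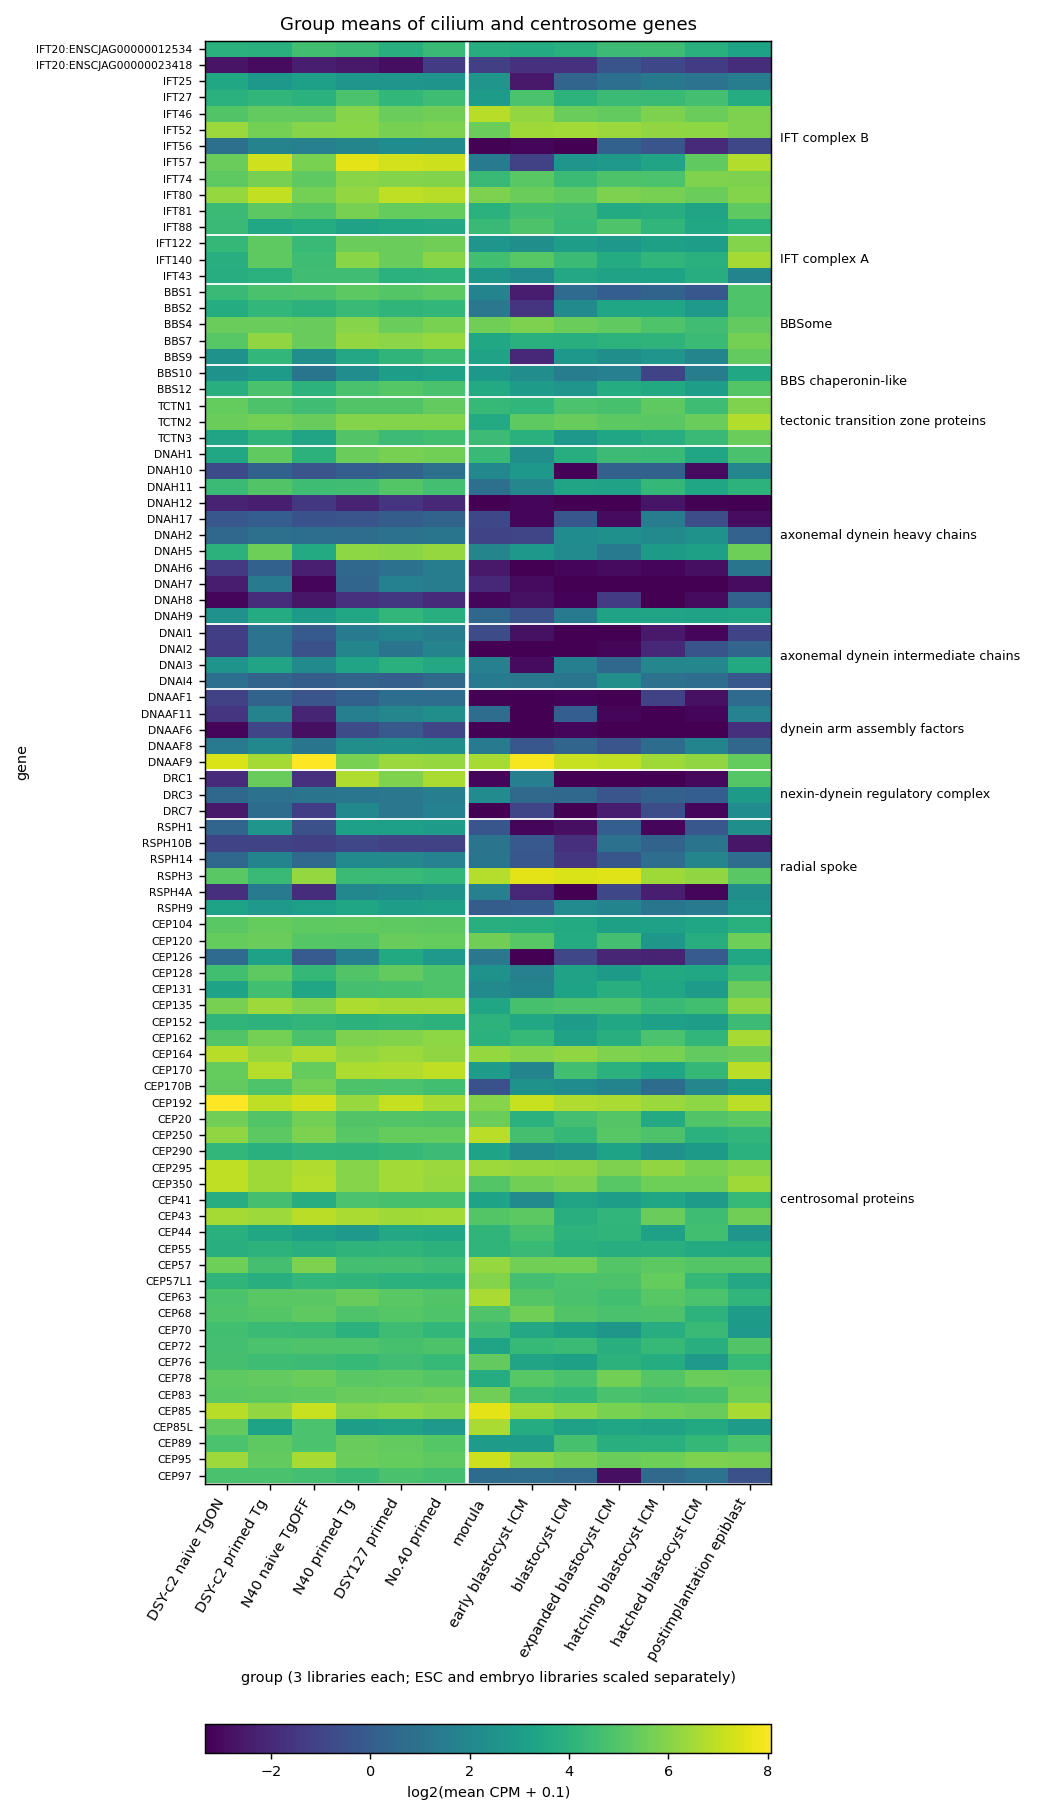
Heat map of the mean level of the 89 gene IDs, ordered by role (rows), in the 13 groups (columns), as log2 of mean CPM plus 0.1, with naive groups left of their primed counterparts. Darker colours are lower levels. Many motile axoneme rows, DRC1 among them, are darker in both naive groups and in the morula and ICM columns than in the primed and epiblast columns, while most CEP rows stay in the green to yellow range.

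The first question was how naive cells differ from primed cells of the same line. Of the 29 motile axoneme genes 14 were lower in the naive cells of both lines, as were 12 of the 25 transport genes and 8 of the 35 CEP genes, while DNAAF9, RSPH3, IFT88 and 10 CEP genes were higher in both. Among all genes tested, 22.0% were lower and 22.9% higher in both lines. In DSY-c2, 42 of 89 members were lower and 16 higher in naive than in primed cells by edgeR's quasi-likelihood test (Benjamini-Hochberg adjusted p below 0.05), beside 29.3% lower and 29.6% higher among all 17957 genes tested. In N40, 40 were lower and 16 higher, beside 28.7% lower and 32.3% higher among all genes. All 89 members passed the filter on low counts here. Libraries of the 2 states did not overlap for 67 members in DSY-c2 and 60 in N40, beside 66.1% and 65.4% of all genes. Members named by size of change were picked among those without overlap, so non-overlap adds no support for them. The median log2 change over the members was -0.37 in DSY-c2 and -0.35 in N40, against 0.03 and 0.09 over all genes.

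The roles split. Of the 29 motile axoneme genes, 19 were lower and 2 higher in DSY-c2 naive cells, with a median log2 change of -1.42. In N40 naive cells 15 were lower and 2 higher, with a median of -1.27. Of the 25 transport and membrane genes, 14 were lower and 4 higher in DSY-c2 (median -0.48), and 17 lower and 1 higher in N40 (median -0.56). The 35 CEP genes had 9 lower and 10 higher in DSY-c2 (median 0.08), and 8 lower and 13 higher in N40 (median 0.18). Among all genes, 29.3% were lower and 29.6% higher in DSY-c2, and 28.7% and 32.3% in N40. In bulk libraries, fewer cells that express a gene and less RNA per cell cannot be told apart.

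**Figure D2:**
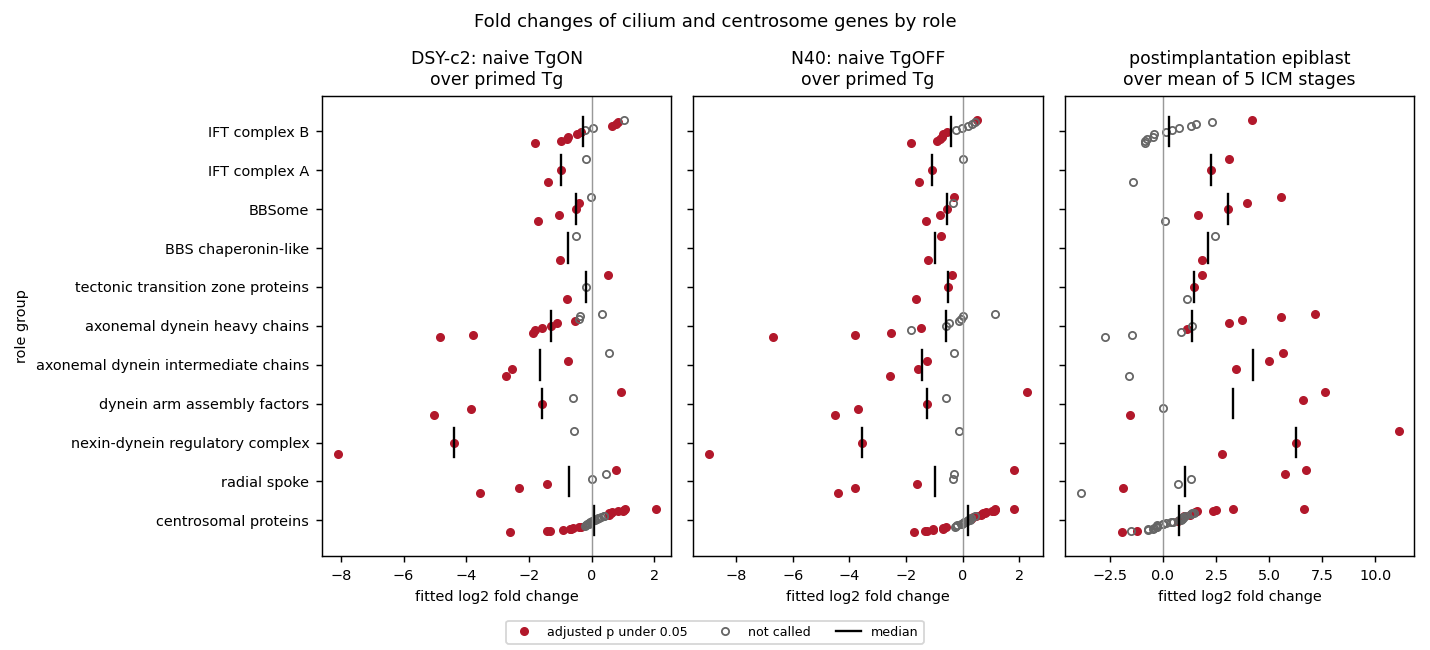
Fitted log2 fold change (horizontal axis) of each member tested, grouped by role (vertical axis), for DSY-c2 naive over primed, N40 naive over primed, and postimplantation epiblast over the mean of the 5 ICM stages. Each point is 1 gene, filled red where the adjusted p is below 0.05 and open otherwise, and bars are medians. The DRC genes have medians of -4.40, -3.54 and 6.26 in the 3 panels, and the CEP genes 0.08, 0.18 and 0.76.

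DRC1 had the largest fall of any member that averaged at least 5 CPM in the higher group, in both lines. It codes for a scaffold of the nexin-dynein regulatory complex, the link between neighbouring doublet microtubules that coordinates dynein arms. DSY-c2 naive libraries had 0.168, 0.10 and 0.197 CPM, against 56.2, 29.1 and 45.0 CPM in DSY-c2 primed libraries. N40 naive libraries had 0.238, 0.141 and 0.259 CPM, against 160, 69.9 and 89.5 CPM in N40 primed libraries. The highest naive library had 0.259 CPM and the lowest primed library of these lines 29.1 CPM. The fitted log2 change was -8.10 ± 0.60 (SE, adjusted p = 4.3e-08, edgeR) in DSY-c2 and -8.96 ± 0.60 (adjusted p = 1.1e-08) in N40. The means were 280-fold lower in DSY-c2 naive cells and 500-fold lower in N40 naive cells.

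Its partner DRC7, a further subunit of the same complex, fell by 4.40 ± 0.51 on the log2 scale in DSY-c2 naive cells and by 3.54 ± 0.44 in N40 naive cells. DSY-c2 naive libraries had 0.0841, 0.0667 and 0.0607 CPM of DRC7, against 2.25, 0.907 and 1.42 CPM in DSY-c2 primed libraries. N40 naive libraries had 0.401, 0.339 and 0.274 CPM, against 5.21, 2.92 and 3.72 CPM in N40 primed libraries. The groups did not overlap in either line. DRC3, another subunit, had fitted changes of -0.56 ± 0.28 and -0.12 ± 0.28 and was not called in either line (adjusted p = 0.10 and 0.72).

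The radial spokes connect the dynein-bearing doublets with the central pair. RSPH1, a spoke head protein, had 1.31, 1.08 and 1.21 CPM in DSY-c2 naive libraries, against 7.52, 4.40 and 6.21 CPM in DSY-c2 primed libraries (log2 change -2.33 ± 0.33, adjusted p = 1.9e-05, edgeR). It had 0.847, 0.424 and 0.577 CPM in N40 naive libraries, against 11.1, 6.39 and 8.24 CPM in N40 primed libraries (-3.80 ± 0.36, adjusted p = 1.5e-07). RSPH4A, which sits in the same spoke head, had 0.168, 0.350 and 0.0910 CPM in DSY-c2 naive libraries, against 2.58, 2.20 and 2.49 CPM in DSY-c2 primed libraries (-3.57 ± 0.65, adjusted p = 0.00018). Both genes were lower in every naive library than in any primed library of the line. RSPH4A in N40 had 0.0594, 0.424 and 0.0577 CPM in naive libraries, against 6.43, 2.80 and 2.36 CPM in primed libraries (-4.40 ± 0.66, adjusted p = 2.5e-05). RSPH14, also counted among the spoke genes by its name, fell by 1.42 ± 0.28 and 1.61 ± 0.28. RSPH9 was not called in either line (0.45 ± 0.27 and -0.31 ± 0.27, adjusted p = 0.17 and 0.34).

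DNAH5 codes for a heavy chain of the outer dynein arm and is often mutated in human primary ciliary dyskinesia. DSY-c2 naive libraries had 13.3, 11.3 and 22.7 CPM of DNAH5, against 53.4, 33.7 and 55.9 CPM in DSY-c2 primed libraries (log2 change -1.59 ± 0.27, adjusted p = 0.0001, edgeR). N40 naive libraries had 9.45, 16.0 and 11.6 CPM, against 75.8, 63.3 and 74.6 CPM in N40 primed libraries (-2.53 ± 0.28, adjusted p = 1e-06). The groups were fully apart in each line. DNAH1, an inner arm heavy chain, fell by 1.82 ± 0.17 in DSY-c2 and by 1.45 ± 0.17 in N40. DSY-c2 naive libraries had 10.3, 11.1 and 12.0 CPM of DNAH1, against 42.5, 30.5 and 44.7 CPM in DSY-c2 primed libraries. Of the 11 heavy chains, 8 were lower in DSY-c2 and 4 in N40, beside 29.3% and 28.7% of all genes. Of the 4 intermediate chains, 3 were lower in each line, beside the same shares. No trend is read from counts over so few genes. DNAH11, another outer arm heavy chain, fell by 0.53 ± 0.19 in DSY-c2, where its libraries overlapped, and was at 21, 23.2 and 24.3 CPM in N40 naive libraries, against 27.1, 19.9 and 23.4 CPM in N40 primed libraries. DNAAF11, an assembly factor that readies dynein arms in the cytoplasm, fell by 3.85 ± 0.45 in DSY-c2 and by 4.52 ± 0.47 in N40.

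**Figure D3:**
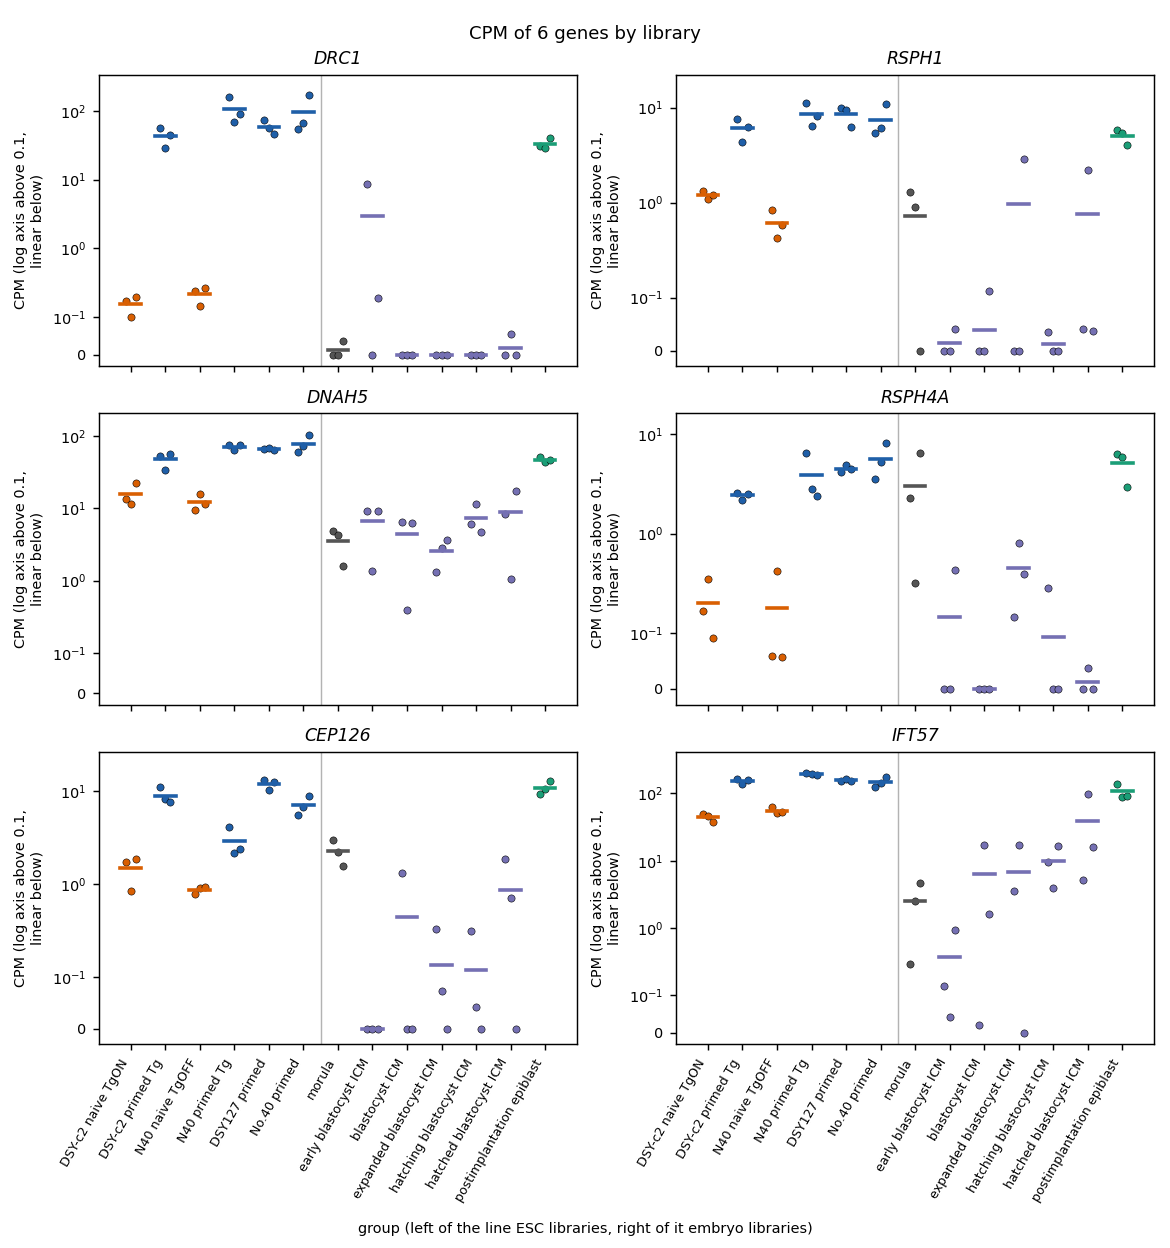
CPM of DRC1, RSPH1, DNAH5, RSPH4A, CEP126 and IFT57 in each library (points) of the 13 groups (horizontal axis), with bars for group means, on a logarithmic axis that is linear near 0. In all 6 panels every naive library lies below every primed library of its line, and DRC1 is at 0 in 12 of the 15 ICM libraries.

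DNAAF9 and RSPH3 were the motile axoneme genes higher in naive cells, and both were so in each line. DNAAF9, the counterpart of a ciliate protein that packages outer dynein arms for delivery, had 173, 137 and 211 CPM in DSY-c2 naive libraries, against 87.9, 107 and 80.3 CPM in DSY-c2 primed libraries (log2 change 0.92 ± 0.16, adjusted p = 0.00012, edgeR). N40 naive libraries had 226, 287 and 295 CPM, against 62.9, 49.8 and 54.1 CPM in N40 primed libraries (2.28 ± 0.17, adjusted p = 1e-08). The naive libraries were the higher in both lines without overlap. RSPH3, a protein of the spoke stalk, had 32.4, 35.8 and 37.2 CPM in DSY-c2 naive libraries, against 20.6, 22.2 and 18.4 CPM in DSY-c2 primed libraries (0.78 ± 0.12, adjusted p = 2.5e-05). In N40 it had 75.9, 72.5 and 85.3 CPM in naive libraries, against 21.3, 23.0 and 21.5 CPM in primed libraries (1.83 ± 0.12, adjusted p = 2.9e-09). For both genes the rise was larger in N40 by the test of the difference itself, with a DSY-c2 minus N40 log2 difference of -1.35 (adjusted p = 0.0011) for DNAAF9 and -1.04 (adjusted p = 0.00072) for RSPH3.

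The transport genes had smaller median changes. IFT57, a complex B subunit, had the largest fall among transport genes in both lines: 49, 45.7 and 37.6 CPM in DSY-c2 naive libraries, against 163, 136 and 160 CPM in DSY-c2 primed libraries (log2 change -1.79 ± 0.13, adjusted p = 1.2e-08, edgeR). In N40 it had 62.9, 50.8 and 52.5 CPM in naive libraries, against 204, 192 and 187 CPM in primed libraries (-1.81 ± 0.13, adjusted p = 8.2e-09). Naive and primed libraries did not overlap in either line. Of the 12 complex B IDs, 6 were lower in each line, and 3 were higher in DSY-c2 and 1 in N40. Among all genes, 29.3% were lower and 29.6% higher in DSY-c2, and 28.7% and 32.3% in N40. No trend is read from counts over so few genes.

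IFT88, the complex B subunit whose loss abolishes cilia in mice, was the complex B gene that was higher in both lines. It had 20.0, 18.4 and 23.2 CPM in DSY-c2 naive libraries, against 11.7, 11.4 and 11.1 CPM in DSY-c2 primed libraries (0.85 ± 0.13, adjusted p = 2.4e-05, edgeR). In N40 it had 13.3, 13.5 and 12.7 CPM in naive libraries, against 9.28, 9.89 and 8.72 CPM in primed libraries (0.50 ± 0.13, adjusted p = 0.0024). The libraries did not overlap in either line. IFT52, a core complex B subunit, was higher in DSY-c2 naive cells alone (66.2, 80.9 and 101 CPM in naive libraries, against 53.7, 47.7 and 55.8 CPM in primed libraries), and this difference between the lines passed its own test (0.68, adjusted p = 0.013).

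In complex A, IFT140 and IFT122 were lower in both lines and IFT43 was called in neither. IFT140 had 12.9, 14.9 and 15.7 CPM in DSY-c2 naive libraries, against 38.0, 35.8 and 40.0 CPM in DSY-c2 primed libraries (log2 change -1.39 ± 0.10, adjusted p = 1.8e-08, edgeR). It had 22.0, 21.9 and 24.4 CPM in N40 naive libraries, against 65.1, 63.4 and 70.3 CPM in N40 primed libraries (-1.54 ± 0.10, adjusted p = 4.5e-09). IFT122 fell by 0.98 ± 0.08 and 1.10 ± 0.08. IFT140 shares its genomic span with another coding gene in the RefSeq assembly calJac240_pri, as do IFT88, IFT74 and BBS9. The same holds for 29 of the 88 symbols. Among them are also TCTN1, CEP126, DNAAF11, DNAH11, DRC3, RSPH9, RSPH14, CEP63, CEP76 and IFT25. Whether counting used strand is not given in the sources used here.

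In the BBSome, 4 of 5 genes were lower in each line, beside 29.3% of all genes in DSY-c2 and 28.7% in N40. No trend is read from a count over 5 genes. BBS9, a core subunit, had 5.70, 5.42 and 6.05 CPM in DSY-c2 naive libraries, against 20.7, 18.8 and 16.7 CPM in DSY-c2 primed libraries (log2 change -1.71 ± 0.15, adjusted p = 1.2e-07, edgeR). N40 naive libraries had 4.65, 5.44 and 4.32 CPM, against 11.4, 9.94 and 14 CPM in N40 primed libraries (-1.29 ± 0.15, adjusted p = 1.9e-06). BBS7 fell by 1.05 ± 0.11 and 0.81 ± 0.11. BBS1 fell by 0.40 ± 0.13 and 0.31 ± 0.13, and its N40 libraries overlapped. BBS12, which helps the BBSome fold and assemble, fell by 1.0 ± 0.19 and 0.77 ± 0.19.

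TCTN1, a tectonic, moved in opposite directions in the lines. It had 39.4, 38.8 and 47.5 CPM in DSY-c2 naive libraries, against 30.5, 28.2 and 28.8 CPM in DSY-c2 primed libraries (log2 change 0.52, adjusted p = 0.00079, edgeR). In N40 it had 23.9, 24.8 and 23.6 CPM in naive libraries, against 31.9, 31.5 and 31.3 CPM in primed libraries (-0.39, adjusted p = 0.0063). No other member was called in opposite directions in the 2 lines. TCTN3 fell by 0.79 ± 0.15 in DSY-c2 and by 1.66 ± 0.15 in N40.

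CEP126, a protein of the centrosome and pericentriolar satellites, fell furthest of the CEP genes in both lines: 1.75, 0.850 and 1.87 CPM in DSY-c2 naive libraries, against 11.2, 8.23 and 7.62 CPM in DSY-c2 primed libraries (log2 change -2.60 ± 0.32, adjusted p = 3.5e-06, edgeR). It had 0.787, 0.905 and 0.922 CPM in N40 naive libraries, against 4.16, 2.16 and 2.38 CPM in N40 primed libraries (-1.73 ± 0.32, adjusted p = 0.00016). CEP170, a protein of the subdistal appendages of the mother centriole, had 46.9, 36.8 and 41.9 CPM in DSY-c2 naive libraries, against 113, 119 and 104 CPM in DSY-c2 primed libraries (-1.42 ± 0.10, adjusted p = 1.4e-08). Neither gene overlapped between states in either line. CEP170 in N40 fell by 1.32 ± 0.10. CEP162, which links centrioles to the transition zone, fell by 0.69 ± 0.10 and 1.04 ± 0.10.

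Of the 35 CEP genes, 10 were higher in naive cells of both lines (28.6%, beside 22.9% of all genes). Another 8 were lower in both (22.9%, beside 22.0% of all genes). No trend of the CEP genes as a group is read from these shares, and single genes are given by their values. CEP85L, a pericentriolar protein, had 35.7, 44.1 and 39.4 CPM in DSY-c2 naive libraries, against 10.7, 8.76 and 9.52 CPM in DSY-c2 primed libraries (log2 change 2.04 ± 0.14, adjusted p = 6.7e-09, edgeR). In N40 it had 28.3, 30.9 and 25.8 CPM in naive libraries, against 8.12, 8.57 and 7.33 CPM in primed libraries (1.82 ± 0.14, adjusted p = 1.6e-08). CEP192, the scaffold that recruits mitotic kinases to the centrosome, had 241, 241 and 309 CPM in DSY-c2 naive libraries, against 137, 119 and 129 CPM in DSY-c2 primed libraries (1.04 ± 0.10, adjusted p = 2.4e-07). Naive libraries were above primed ones throughout. CEP192 in N40 had 151, 176 and 162 CPM in naive libraries, against 83.5, 78.6 and 76.0 CPM in primed libraries (1.04 ± 0.10, adjusted p = 1.8e-07). CEP250, which holds the 2 centrioles together until mitosis, rose by 1.01 ± 0.14 and 0.72 ± 0.14. CEP95 rose by 1.08 ± 0.15 and 1.14 ± 0.15, and CEP57 by 0.83 ± 0.10 and 1.14 ± 0.10. CEP164, the distal appendage protein that docks the basal body, rose by 0.56 ± 0.07 and 0.48 ± 0.07. CEP85L overlaps another coding gene in the RefSeq assembly.

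**Figure D4:**
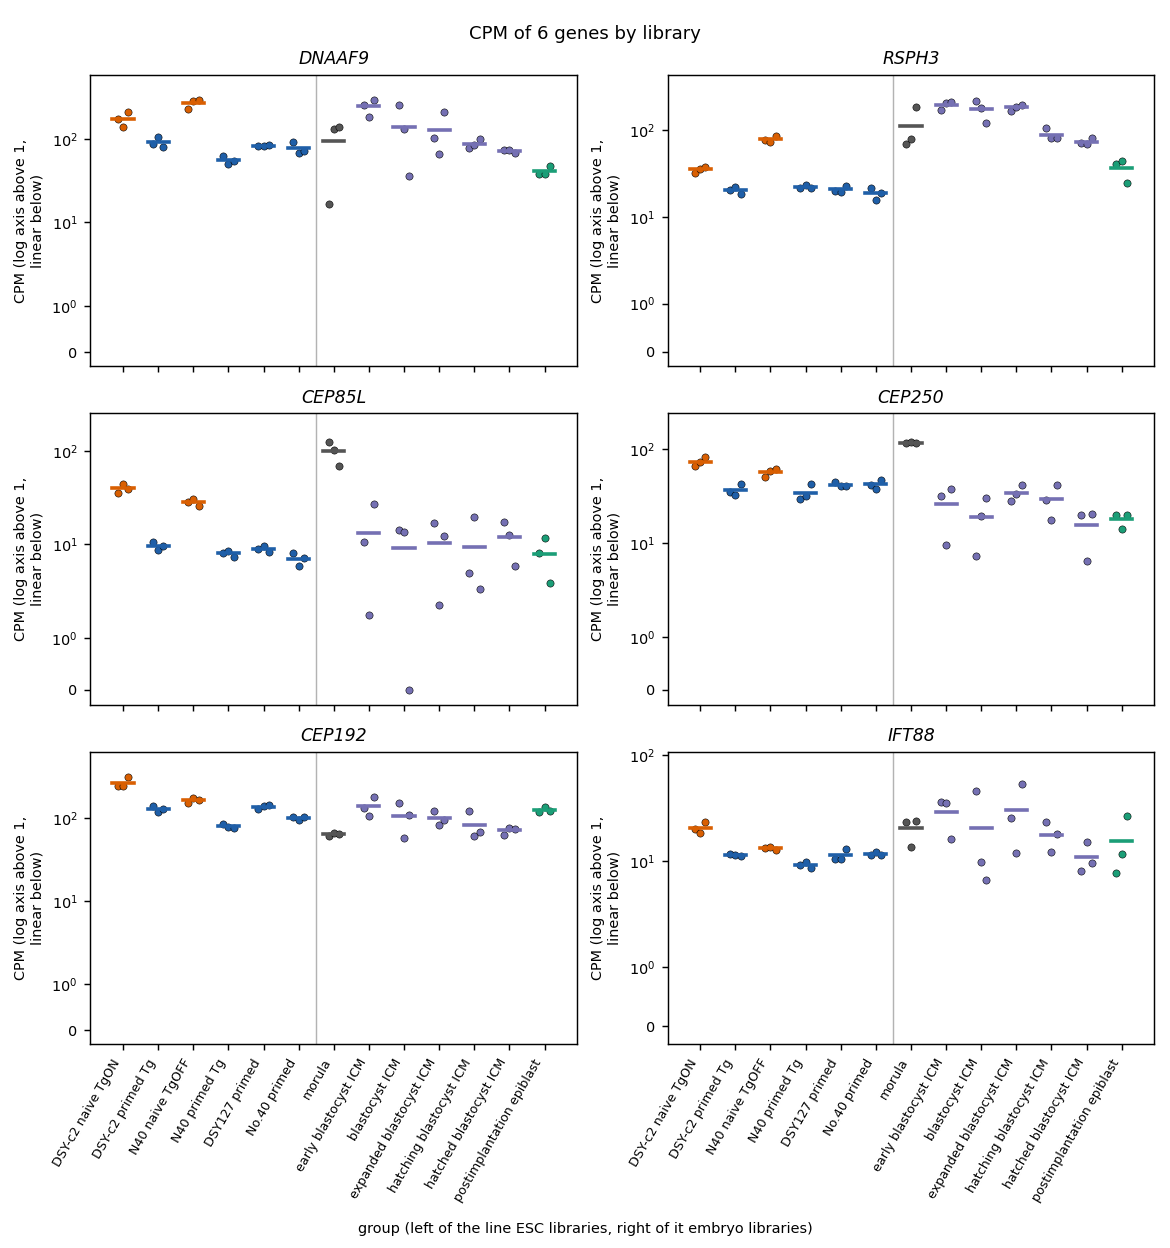
CPM of DNAAF9, RSPH3, CEP85L, CEP250, CEP192 and IFT88 in each library (points) of the 13 groups (horizontal axis), with bars for group means, on a logarithmic axis that is linear below 1 CPM. Every naive library lies above every primed library of its line in all 6 panels, and CEP85L and CEP250 stand highest in the 3 morula libraries among embryo groups.

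Across both lines, 34 of 89 members were lower in naive cells of each, beside 22.0% of all genes tested. A further 13 of 89 were higher in both, beside 22.9% of all genes: DNAAF9, RSPH3, IFT88 and 10 CEP genes (CEP20, CEP57, CEP85, CEP85L, CEP95, CEP164, CEP192, CEP250, CEP295 and CEP350). The difference between the lines was called for 9 members, 6 with a higher DSY-c2 minus N40 value and 3 with a lower one, beside 6.55% and 8.57% of all genes. None of the 12 members named by size of change in DSY-c2, nor of the 12 in N40, lost its call in any alternative tried or when any library was left out.

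Genes of the same structures outside the name rule were counted from lists. In the list of other motile axoneme genes, 36 of 45 were found, of which 30 were lower and 1 higher in DSY-c2 naive cells (median log2 change -2.38) and 33 lower in N40 naive cells (median -2.41). CFAP45, a protein inside the doublet microtubules, averaged 0.417 ± 0.184 CPM in DSY-c2 naive cells and 51.4 ± 1.67 CPM in DSY-c2 primed cells (SD, n = 3 each), a log2 change of -6.95 ± 0.49. In N40 it fell by 6.72 ± 0.46. SPAG6, a protein of the central pair, averaged 22.0 ± 4.20 CPM in DSY-c2 naive cells and 249 ± 34.4 CPM in DSY-c2 primed cells, a log2 change of -3.50 ± 0.24, and changed by -3.05 ± 0.23 in N40. ZMYND10, a dynein assembly factor, changed by -3.02 ± 0.29 and -3.82 ± 0.30. Of 10 transition zone genes found of 16 listed, 7 were lower in each line, with 1 higher in DSY-c2 and 2 in N40, beside the 29.3% and 28.7% lower and 29.6% and 32.3% higher among all genes. RPGRIP1L, a scaffold of that zone, fell by 2.32 ± 0.13 and 3.12 ± 0.13. Of 16 further transport and motor genes found of 23, 8 were lower and 1 higher in DSY-c2, and 9 lower and 3 higher in N40, against the same shares of all genes. WDR35, a complex A subunit, fell by 2.89 ± 0.17 and 3.37 ± 0.17, and KIF3A, the motor subunit of the anterograde kinesin, by 1.59 ± 0.11 and 1.49 ± 0.11. Of 8 genes of the pericentriolar material found of 11, 3 were higher in DSY-c2 naive cells and 4 in N40 naive cells, and 0 were lower, beside 29.6% and 32.3% of all genes higher, and nothing is read from counts over so few genes. Among them CDK5RAP2, which anchors microtubule nucleation, rose by 1.03 ± 0.10 and 0.85 ± 0.10.

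Of 6 listed multiciliated cell markers, 3 were found, and their sum was 2.02 to 3.44 CPM in DSY-c2 naive cells, against 14.6 to 17.0 CPM in DSY-c2 primed cells, and 3.02 to 4.30 CPM in N40 naive cells, against 15.3 to 20.1 CPM in N40 primed cells. Nearly all of it was DEUP1, a deuterosome protein. MCIDAS, the switch of the multiciliated programme, averaged at most 0.305 CPM and CCNO at most 0.495 CPM in any stem cell group. FOXJ1, the master factor of motile cilia, was not analysed here.

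The second question was whether the primed cells labelled Tg differ from primed lines without that label. DSY-c2 primed Tg cells had 1 member lower than DSY127, beside 1.72% of all genes, and no member higher, beside 0.156% (edgeR). At an unadjusted p below 0.05 no member was higher and 11 were lower, and DESeq2's test called none higher and 2 lower. The unadjusted and DESeq2 counts stand without a share of all genes, so nothing is read from them. The motile axoneme genes had a median log2 change of -0.40, against 0.0033 over all genes. The gene called lower by edgeR was DNAI3, an inner arm intermediate chain, with 10.4, 9.06 and 10.4 CPM in DSY-c2 primed Tg libraries, against 14.1, 15.5 and 15.1 CPM in DSY127 libraries (log2 change -0.58 ± 0.14, adjusted p = 0.045). That call was lost when any library of either group was left out and when the lane pair was a covariate. Lane pair and group coincide fully here. DRC1 had 56.2, 29.1 and 45.0 CPM in DSY-c2 primed Tg libraries, against 73.6, 55.9 and 46.3 CPM in DSY127 libraries, which overlap.

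N40 primed Tg cells had 10 members lower and 5 higher than No.40, beside 13.6% and 8.3% of all genes. BBS9 had 11.4, 9.94 and 14 CPM in N40 primed Tg libraries, against 20.0, 23.0 and 26.4 CPM in No.40 libraries (log2 change -0.98 ± 0.15, adjusted p = 0.0004, edgeR). CEP126 had 4.16, 2.16 and 2.38 CPM in N40 primed Tg libraries, against 5.57, 6.75 and 8.94 CPM in No.40 libraries (-1.29 ± 0.30, adjusted p = 0.0069). Both were lower in every N40 library. IFT80, a complex B subunit, was lower by 0.61 ± 0.13, and BBS10, a chaperonin-like protein, had a log2 change of -0.96 ± 0.26, a call lost without No.40 replicate 1 (adjusted p = 0.067) or N40 primed replicate 2 (0.056) or 3 (0.052). The higher members were IFT43 (0.55 ± 0.11), IFT46 (0.43 ± 0.10), CEP63 (0.43 ± 0.12), IFT57 (0.39 ± 0.13) and CEP89 (0.36 ± 0.10). The IFT57 call was lost with the replicate block (adjusted p = 0.067), with the lane pair as a covariate (0.060) and without No.40 replicate 1 (0.073) or N40 primed replicate 1 (0.057) or 2 (0.054). With only the groups compared, IFT57 (0.077), CEP63 (0.075) and CEP89 (0.089) were not called, and CEP89 was also lost without N40 primed replicate 3 (0.056). The count of lower members was 3, 6 and 5 without No.40 replicate 1, 2 or 3, and 6, 4 and 5 without N40 primed replicate 1, 2 or 3. The count of higher members was 10 without No.40 replicate 3, the library that was highest in its group for 17 of the 25 motile axoneme genes at 1 CPM or more.

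Between the lines without Tg, DSY127 against No.40, 1 member was higher and 1 lower, beside 2.65% and 1.82% of all genes. CEP192 had 126, 137 and 145 CPM in DSY127 libraries, against 102, 94.7 and 103 CPM in No.40 libraries (log2 change 0.45 ± 0.10, adjusted p = 0.015, edgeR). IFT140 had 47.3, 45.7 and 41.0 CPM in DSY127 libraries, against 58.7, 66.2 and 73.9 CPM in No.40 libraries (-0.57 ± 0.10, adjusted p = 0.0043). The libraries did not overlap for either gene. The IFT140 call was lost with only the groups compared (adjusted p = 0.051). The CEP192 call was lost without DSY127 replicate 2 or 3 or No.40 replicate 2, and 2 members were lower without No.40 replicate 1. These last comparisons share the No.40 libraries. The fibroblast list summed to 299 to 380 CPM in DSY-c2 primed Tg cells, against 849 to 2011 CPM in DSY127, and to 501 to 776 CPM in N40 primed Tg cells, against 1066 to 2061 CPM in No.40. In the last pair 4 of 6 mesoderm and node genes were also lower (median log2 change -3.28), summing to 7.85 to 11.3 CPM in N40 primed Tg cells, against 15.6 to 151 CPM in No.40. Of 6 primitive endoderm genes 2 were lower, with sums of 24.8 to 50.5 CPM in N40 primed Tg cells, against 39.2 to 470 CPM in No.40. Among all genes, 13.6% were lower in N40 primed Tg cells than in No.40. The part of these lists in the results was not tested.

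In the embryo, 86 of the 89 members passed the filter on low counts: DNAH7, DNAH12 and DNAAF6 did not. A difference over the 7 stages was called for 29 of 86, beside 38.0% of all 16929 genes tested (edgeR). That count was 19, 19 and 17 without epiblast replicate 1, 2 or 3.

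Between ICM and morula, 18 of 86 members were called, beside 20.8% of all genes. With the 5 ICM stages averaged, 16 of 86 members were lower than in morula and 2 higher, beside 12.2% and 8.65% of all genes. Of the 16, 10 were among the 35 CEP genes tested. In morula the median level was 22.2 CPM for CEP genes, 12.2 CPM for transport genes and 1.34 CPM for motile axoneme genes. The part of level in the calls was not tested. CEP250 had 6.45 to 42.0 CPM with a median of 28.2 in the 15 ICM libraries, against 118, 120 and 115 CPM in the morula libraries (log2 change -2.29 ± 0.36, adjusted p = 0.00034, edgeR). CEP85 had 28.2 to 108 CPM with a median of 62.1 in ICM libraries, against 212, 241 and 127 CPM in morula libraries (-1.71 ± 0.23, adjusted p = 0.00011). All morula libraries were above all ICM libraries for both. CEP85L had 0 to 27.4 CPM with a median of 12.2 in ICM libraries, against 126, 103 and 68.9 CPM in morula libraries (-3.21 ± 0.82, adjusted p = 0.0097). CEP63, a centriole duplication factor, was lower by 1.76 ± 0.33, and CEP76, which limits duplication, had a log2 change of -1.93 ± 0.54. The calls for CEP76 and CEP85L were lost without morula replicate 1, and that for CEP76 also without replicate 2.

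Outside the CEP genes, IFT25, a complex B subunit, had 0 to 3.09 CPM in ICM libraries, with a mean of 6.11 ± 1.12 CPM (SD, n = 3) in morula libraries (log2 change -2.72 ± 0.92, adjusted p = 0.045, edgeR), a call lost in most runs without 1 library. The 2 higher members were DNAH11 (2.44 ± 0.78, adjusted p = 0.035) and TCTN2 (1.65 ± 0.55, adjusted p = 0.041), and the libraries of both overlapped. The count of lower members was 7 without morula replicate 1 and 9 without replicate 2. The count of higher members was 0 without morula replicate 1, 4 without blastocyst ICM replicate 3, and 1 without any of 6 other ICM libraries.

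Between postimplantation epiblast and ICM, 34 of 86 members were higher in epiblast, 4 were lower and 48 were not called, beside 26.1% higher and 18.7% lower among all genes. The median log2 change was 1.03, against 0.20 over all genes. Among motile axoneme genes, 15 of 26 were higher and 2 lower (median 2.94), among transport genes 10 of 25 were higher (median 1.47), and among CEP genes 9 of 35 were higher and 2 lower (median 0.76). DESeq2 size factors shifted all of these fold changes by 0.24 towards epiblast, with 37 members higher and 2 lower. Among the higher motile axoneme genes, DRC1, DNAI1, DNAI2 and DNAAF1 had no count in 12 of the 15 ICM libraries. Genes this low in ICM may have passed the low-count filter through the epiblast libraries, and could then only be called higher. The count and median of the motile axoneme genes are therefore descriptions. Genes with at least 10 counts numbered 15042 to 15076 in epiblast libraries, against 11604 to 14498 in ICM libraries, and the part of this in the results was not tested. This comparison and that of ICM with morula share the 15 ICM libraries.

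DRC1 had 30.9, 29.3 and 40.3 CPM in epiblast libraries. Of the 15 ICM libraries, 12 had no count, and the other 3 had 8.69, 0.187 and 0.0546 CPM. All epiblast libraries lay above all ICM libraries, and the adjusted p was 8.6e-05 (edgeR). DRC1 is among the genes that may have passed the low-count filter through the epiblast libraries, and could then only be called higher. Its lack of overlap and its p-value are therefore descriptions. The epiblast mean was 56.2-fold higher than the ICM mean of 0.596 CPM, and 1499-fold higher without early blastocyst ICM replicate 1, the library with 8.69 CPM. In the 3 ICM stages with no DRC1 count at all, 3 counts over the stage would correspond to 0.0189 to 0.0194 CPM, which covers counting error only. The morula libraries had 0, 0 and 0.0354 CPM.

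DNAH5 had 50.8, 43.4 and 47.4 CPM in epiblast libraries, against 0.399 to 17.3 CPM with a median of 6.06 in ICM libraries (log2 change 3.10 ± 0.62, adjusted p = 0.00069, edgeR). RSPH1 had 5.82, 5.42 and 4.01 CPM in epiblast libraries, against 0 to 2.89 CPM with a median of 0 in ICM libraries (adjusted p = 0.0042). Neither overlapped. The RSPH1 mean was 14.2-fold higher in epiblast, and 30.6-fold without expanded blastocyst ICM replicate 3. Its fitted log2 change of 5.76 became 7.41 without that library, 6.68 without blastocyst ICM replicate 3 and 6.51 without hatched blastocyst ICM replicate 2. RSPH4A was 36.1-fold higher by the means (log2 change 6.75, adjusted p = 0.00059), with a log2 change of 7.87 without early blastocyst ICM replicate 3 and 7.74 without hatching blastocyst ICM replicate 1. DRC7 was 21.4-fold higher (adjusted p = 0.0059), or 44.5-fold without hatching blastocyst ICM replicate 3. DRC3, not called in the stem cells, had 7.15, 4.88 and 9.83 CPM in epiblast libraries and stage means of 0.701 to 1.45 CPM in the ICM (2.77 ± 1.0, adjusted p = 0.032).

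DNAAF9 and RSPH3 were lower in epiblast. RSPH3 averaged 111 CPM in morula, 195, 172, 182, 88.4 and 73.1 CPM in the successive ICM stages and 36.0 CPM in epiblast, with 40.3, 43.4 and 24.3 CPM in the epiblast libraries. Epiblast was below all 15 ICM libraries (log2 change -1.87 ± 0.29, adjusted p = 9.3e-05, edgeR). DNAAF9 averaged 95.2 CPM in morula, 245, 140, 126, 87.3 and 72.1 CPM in the ICM stages and 40.9 CPM in epiblast (-1.58 ± 0.55, adjusted p = 0.027), with overlap between epiblast and ICM libraries. The 4 lower members were these 2, CEP68 (-1.93 ± 0.50) and CEP57L1 (-1.24 ± 0.45), and the count of lower members was 2 without epiblast replicate 1 and 2 without replicate 3.

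Among transport genes, BBS1 had 23.9, 31.7 and 34.8 CPM in epiblast libraries and stage means of 0.0832 to 1.49 CPM in the ICM, a 33.7-fold difference of the means (log2 change 5.55 ± 0.99, adjusted p = 0.00029, edgeR). That log2 change was 6.68 without early blastocyst ICM replicate 1 and 6.38 without blastocyst ICM replicate 1. BBS9 had 46.7, 32.6 and 40.5 CPM in epiblast libraries, against 0.0831 to 9.76 CPM with a median of 3.97 in ICM libraries (3.98 ± 0.55, adjusted p = 3e-05). No ICM library reached an epiblast one for either. IFT122 had 62.1, 60.3 and 65.6 CPM in epiblast libraries, against 0.906 to 20.9 CPM with a median of 6.79 in ICM libraries (3.13 ± 0.63, adjusted p = 0.0007). IFT57 had 140, 88.3 and 92.5 CPM in epiblast libraries, against 0 to 97.0 CPM with a median of 3.99 in ICM libraries. Its groups overlapped through hatched blastocyst ICM replicate 2, and its fold was 8.51, or 15.7 without that library (adjusted p = 0.0039). IFT57 was the 1 of 12 complex B IDs that was called, beside 26.1% of all genes higher and 18.7% lower.

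Of the CEP genes, CEP126 was 35.3-fold higher in epiblast, at 9.44, 10.5 and 12.9 CPM, against 0 to 1.86 CPM with a median of 0 in ICM libraries (log2 change 6.66 ± 1.36, adjusted p = 0.0011, edgeR). Without blastocyst ICM replicate 1 its log2 change was 8.26. CEP170 had 140, 118 and 103 CPM in epiblast libraries and stage means of 3.46 to 24.3 CPM in the ICM (3.31 ± 0.60, adjusted p = 0.00032). CEP162 rose by 2.52 ± 0.42. All 3 were also lower in the naive cells of both lines. None of the 7 members named for the epiblast comparison lost its call when any library was left out. In the other alternatives none of 55 values lost the call, but not every alternative gave a value for each of the 7. The limit set by the low-count filter, given for DRC1, holds here too. The fibroblast list summed to 1145 to 1279 CPM in epiblast libraries, and to 28.2 CPM or less in all morula and ICM libraries. The mesoderm and node list summed to 187 to 191 CPM in epiblast, with 0.272 to 184 CPM over the ICM libraries. The part of these cells in the epiblast values was not tested.

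Over both sets, 24 of the 86 members tested in both sets were lower in naive cells of both lines and higher in epiblast than in ICM, beside 13.3% of the 16136 genes tested in both. They were 11 of 26 motile axoneme genes, 8 of 25 transport genes and 5 of 35 CEP genes. In the list of other motile axoneme genes the same held for 23 of 35. The limit set by the low-count filter, given for epiblast against ICM, holds for these counts too. The reverse pattern, higher in naive cells of both lines and lower in epiblast, held for 2 of 86, DNAAF9 and RSPH3, beside 9.61% of all genes. Among the members, the log2 CPM profile over the 13 group means nearest to that of DRC1 was that of DRC7 (Pearson r = 0.96), then DNAH5 (0.95) and DNAH6 (0.95). These 13 points mix sets that were scaled separately and share their libraries across genes, so the values are descriptions. In order of mean DRC1 level, low to high, the stem cell groups were DSY-c2 naive (0.155 CPM), N40 naive (0.213 CPM), DSY-c2 primed Tg (43.4 CPM), DSY127 (58.6 CPM), No.40 (97.8 CPM) and N40 primed Tg (106 CPM). Libraries of neighbouring groups in this order overlapped, except between N40 naive and DSY-c2 primed Tg.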

How the data were processed

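Paired-end poly(A)+ libraries were made with a stranded kit, per the labels' protocols. The deposited table holds read counts per Ensembl gene ID, made by the authors with Trim Galore 0.4.0, STAR 2.5.3a and featureCounts 1.5.2 (versions per the submitters' processing notes). Neither genome build nor strand setting is given in the sources used here. Of low deposited counts (1 to 49), 65.0% were even, against 50.8% of those of 500 or more, so mates may have been counted separately, and halved counts were an alternative. The 78 columns mapped to libraries were summed over the 2 runs of each library, and 6 other columns were not used.

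The 18 stem cell and 21 embryo libraries were fitted apart with edgeR 4.0.16 (R 4.3.3): filterByExpr, TMM scaling and the robust quasi-likelihood F test over group means, adjusted by Benjamini-Hochberg over all genes tested, with calls at an adjusted p below 0.05. Standard errors are the size of the log2 change divided by the square root of F. CPM uses the TMM-scaled library sizes. A fold without an SE is a ratio of mean CPM. Symbols came from a gene name table, and matched 41.1% of IDs. The fits were tested on simulated data. The labels do not say whether same-numbered libraries are paired, and the main fit used no pairing. Deviations of same-numbered libraries from their group means correlated at -0.43 to 0.43. With 3 libraries per group this cannot decide whether they are paired.

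The members and lists were chosen with earlier results of these data known. Named were up to 6 called members each way per comparison that did not overlap and whose higher group averaged 5 CPM or more, DRC1 with the 3 members most like it, the 2 highest of each role, and other members with their values. Among all genes, libraries did not overlap for 19.7% in DSY-c2 primed Tg against DSY127. The share was 33.1% for N40 primed Tg against No.40 and 27.1% for DSY127 against No.40. It was 9.23% for ICM against morula and 30.6% for epiblast against ICM. Alternatives were DESeq2 1.42.0 size factors and test, no filter, a filter at 1 CPM, only the groups compared, a 1.5-fold threshold, the replicate block, leaving out each library and, chosen after seeing the column names, the lane pair as a covariate.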

Additional observations from a re-analysis of the deposited data

Results flagged for a closer look

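The naive effect differed between DSY-c2 (TgON) and N40 (TgOFF), by the test of the difference itself (DSY-c2 minus N40, edgeR), for 9 members. Line and TgON or TgOFF cannot be told apart in this test. RSPH1 had a log2 difference of 1.47 (adjusted p = 0.041), from a smaller fall in DSY-c2. DNAAF9 had -1.35 (adjusted p = 0.0011) and RSPH3 had -1.04 (adjusted p = 0.00072), from a larger rise in N40. TCTN1 had 0.91 (adjusted p = 0.0015), being higher in naive DSY-c2 cells and lower in naive N40 cells. TCTN3 had 0.87 (adjusted p = 0.013), from a larger fall in N40.

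IFT27, a complex B subunit, had 0.69 (adjusted p = 0.018). It had 15.3, 15.5 and 15.1 CPM in DSY-c2 naive libraries, against 19.2, 15.7 and 18.7 CPM in DSY-c2 primed libraries. In N40 it had 14.4, 16.6 and 15.2 CPM in naive libraries, against 30.4, 30.6 and 26.1 CPM in primed libraries. IFT52 had 0.68 (adjusted p = 0.013), with 59.7, 67.6 and 66.9 CPM in N40 naive libraries, against 65.6, 64.6 and 66.8 CPM in N40 primed libraries. CEP78 had -0.43 (adjusted p = 0.044) and IFT74 had 0.33 (adjusted p = 0.037).

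The RSPH1 call was lost with the lane pair as a covariate and without several single libraries, and the CEP78 call under most alternatives. The IFT74 call was lost with no filter on low counts and without N40 primed replicate 2 or N40 naive replicate 3. The DSY-c2 primed libraries all carried another lane pair in their column names than the N40 libraries.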

How the results depend on the processing

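With a test against a 1.5-fold change, DSY-c2 naive cells had 8 members higher and 27 lower, N40 naive cells 8 higher, and the difference between lines none higher (0). The same test gave 0 higher and 1 lower for N40 primed Tg against No.40, 0 lower for DSY-c2 primed Tg against DSY127, 0 and 0 for DSY127 against No.40, 0 higher and 10 lower for ICM against morula, and 2 lower for epiblast. For DSY-c2 primed Tg against DSY127, lower members were 0 with DESeq2 size factors, with no filter or with the lane covariate, and 2 with DESeq2's test or only the groups compared. For DSY127 against No.40 they were 2 with DESeq2 size factors or the 1 CPM filter, 3 with DESeq2's test or the lane covariate, and 0 with only the groups compared. For N40 primed Tg against No.40, no filter gave 4 lower, and only the groups compared gave 2 higher and 4 lower. Epiblast had 2 lower with DESeq2 size factors. ICM against morula had 8 higher with DESeq2's test and 0 with only the groups compared, and DESeq2's test called 44 members over the 7 stages. The cause was not tested. Counts of members under alternatives, here and elsewhere in the text, stand without the share of all genes called under the same setting. They do not show whether the members moved apart from all genes.

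The replicate block gave 16 higher and 39 lower for N40 naive, 4 and 7 for N40 primed Tg against No.40, 1 and 1 for DSY127 against No.40, 4 and 13 for ICM against morula, 34 and 4 for epiblast, and 27 over all stages. It could not be fitted for the DSY-c2 comparisons, whose groups share fewer than 2 numbers.

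Leaving out each library gave 16 to 17 higher and 37 to 42 lower for DSY-c2 naive, 14 to 16 and 39 to 44 for N40 naive, 4 to 9 and 2 to 4 for their difference, 0 to 0 and 0 to 0 for DSY-c2 primed Tg against DSY127, 4 to 10 and 3 to 6 for N40 primed Tg against No.40, 0 to 1 and 1 to 2 for DSY127 against No.40, 0 to 4 and 7 to 17 for ICM against morula, 24 to 37 and 2 to 6 for epiblast, and 17 to 32 over all stages. Of 1162 single-gene values under alternatives, 105 lost the call and none reversed. Members under 1 CPM are limited by depth.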

Other observations

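Genes of Hedgehog signalling, a pathway that vertebrate cells run through the primary cilium, did not move with the cilium genes in one direction. Of 15 listed genes of the cilium membrane and signalling, 13 were found. Of these, 5 were lower and 2 higher in DSY-c2 naive cells, 4 lower and 6 higher in N40 naive cells, and 8 higher and 0 lower in epiblast than in ICM. Among all genes 29.3% were lower and 29.6% higher in DSY-c2 naive cells, 28.7% lower and 32.3% higher in N40 naive cells, and 26.1% higher in epiblast. SMO, the signal transducer in the ciliary membrane, averaged 6.68 ± 1.07 CPM in DSY-c2 naive cells and 30.1 ± 4.37 CPM in DSY-c2 primed cells (SD, n = 3 each), with log2 changes of -2.17 ± 0.18 there and -2.11 ± 0.18 in N40. GLI1, a target and effector of the pathway, averaged 29.9 ± 3.28 CPM in DSY-c2 naive cells and 18.8 ± 6.10 CPM in DSY-c2 primed cells (0.67 ± 0.19, adjusted p = 0.0067, edgeR). In N40 GLI1 averaged 49.3 ± 1.60 CPM in naive cells and 11.9 ± 1.38 CPM in primed cells (2.05 ± 0.20, adjusted p = 2.2e-07). PTCH1, the receptor, changed by -1.07 ± 0.21 in DSY-c2 and by 0.76 ± 0.21 in N40, both called. In epiblast, SMO averaged 61.3 CPM, PTCH1 52.2 CPM and GLI1 87.9 CPM, and the ICM stage means were at most 1.59 CPM for SMO, 2.24 CPM for PTCH1 and 8.59 CPM for GLI1.

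Of 10 listed regulators of the motile cilium programme 8 were found. Beside 29.6% higher and 29.3% lower among all genes, 1 was higher and 3 lower in DSY-c2 naive cells (median log2 change -0.94). Beside 32.3% higher and 28.7% lower among all genes, 3 were higher and 2 lower in N40 naive cells (median 0.29). Nothing is read from counts over these 8 regulators. Among them RFX3 averaged 13.8 ± 4.37 CPM in DSY-c2 naive cells and 23.5 ± 2.63 CPM in DSY-c2 primed cells (log2 change -0.76 ± 0.20, adjusted p = 0.0032, edgeR), and fell by 1.5 ± 0.20 in N40 naive cells. MYB went the other way, with log2 changes of 1.26 ± 0.20 in DSY-c2 and 3.26 ± 0.21 in N40. RFX2 was not called in either line (-0.32 ± 0.18 and 0.14 ± 0.18). In epiblast RFX2 averaged 58.8 CPM, against ICM stage means of 6.01 to 9.53 CPM (3.03 ± 0.42, adjusted p = 3.1e-05), and RFX3 averaged 2.08 CPM, against ICM stage means of 0.0138 to 2.59 CPM (2.72 ± 1.33, adjusted p = 0.10).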
